A study of Rattus norvegicus with 12 samples.

Results

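The genes described here in the rat prostate were 9: Pecam1, Cdh5, Vwf and Eng, which mark the surface, junctions and secretory granules of endothelial cells, the receptors Kdr, Flt1 and Tek, and the angiopoietins Angpt1 and Angpt2. They were found by name among the 41012 probes of an Agilent rat array. The names gave 14 probes of 8 genes, and Pecam1 was present under its older name Pecam with 1 further probe, so that 15 probes of 9 genes were read. All 15 were among the 36098 probes kept for testing, which covered 17100 named genes.

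Endothelial cells line blood vessels. VEGF ligands act on them through the tyrosine kinase receptors Kdr (VEGFR2), which carries most of the growth signal, and Flt1 (VEGFR1), which binds ligand tightly and limits it. Angpt1, made largely by cells around the vessel, activates the receptor Tek (Tie2) and keeps vessels quiet, while Angpt2, released by endothelial cells themselves, competes with it and is known to rise where vessels are remodelled. Pecam1 and Cdh5 (VE-cadherin) hold neighbouring endothelial cells together, Vwf is the clotting factor stored in endothelial granules, and Eng is a co-receptor for TGF-beta and BMP ligands.

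The samples were prostates of male rats aged 10 weeks, in 4 groups of 3 arrays. The sham/vehicle and sham/Eviprostat groups had a sham operation, and the obstruction/vehicle and obstruction/Eviprostat groups had the outlet of the bladder narrowed by a ring tied around the urethra. Vehicle was 0.1% Tween 80, and Eviprostat, a plant-based preparation used for benign prostatic enlargement, was given in doses of 18 mg/kg, or 36 mg/kg daily. Both were given for 5 days and until 2 h before the prostate was taken. Dosing started 5 days after surgery in sham rats but on the next day in obstructed rats, so obstruction and time since surgery cannot be told apart. Tissue was pooled within a group of 5 or 6 animals, so the p-values speak of the spread over arrays, not over animals. Every array carried its own group's RNA in Cy5 and sham/vehicle RNA in Cy3, with no dye swap, and the measure is the log2 ratio of Cy5 to Cy3. Replicate 1 of every group lay on slide 1, replicate 2 on slide 2 and replicate 3 on slide 3, and slide 1 was scanned on another day.

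Several probes carry the results below, and 6 of them are shown, from the array files, 5′ to 3′ and in lower case throughout. The pairs for Vwf and Angpt2 are given because probes of these genes gave different answers, and those of Cdh5 and Eng because they carry a lower value and an uncertain one. Positions come from the array's design, which used the rat build rn3.
Cdh5, brightest probe: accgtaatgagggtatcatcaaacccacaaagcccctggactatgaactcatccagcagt
Vwf, brightest probe: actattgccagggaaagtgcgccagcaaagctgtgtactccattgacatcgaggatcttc
Vwf, second probe: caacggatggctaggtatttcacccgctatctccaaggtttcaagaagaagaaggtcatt
Angpt2, second probe: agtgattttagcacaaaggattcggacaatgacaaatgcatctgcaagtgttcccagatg
Angpt2, the third probe: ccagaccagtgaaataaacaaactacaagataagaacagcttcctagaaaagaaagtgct
Eng, only probe: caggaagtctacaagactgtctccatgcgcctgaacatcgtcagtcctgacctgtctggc
The brightest Cdh5 probe, at chr19:788852-790286, covers 60 bases of transcript over 1435 bases of genome, so its bases lie in more than 1 exon. The same holds for the brightest Vwf probe, at chr4:162098933-162099422 over 490 bases, and for the third Angpt2 probe, at chr16:75923195-75927588 over 4394 bases. The second Vwf probe lies without a gap at chr4:162054469-162054528, and the second Angpt2 probe at chr16:75939504-75939563. The brightest Angpt2 probe, at chr16:75942238-75942297, held a stop codon in each of its 3 forward reading frames, so it was not read as coding sequence. Probes are called the brightest, the second and the third by their mean signal over the 12 arrays, and each gene is read on its brightest probe unless another is named.

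Obstruction under vehicle moved 4 of the 9 genes: Kdr, Vwf and Angpt2 rose and Cdh5 fell. In the test over all probes (limma, Benjamini-Hochberg adjusted p under 0.05), 11.6% of probes were called in this comparison, 7.16% higher and 4.45% lower. Among genes read on their brightest probe, 14.6% were called. The median log2 difference was 0.32 over the 9 genes and 0 over all 17100. The value of 0.32 is that of Tek, whose probe passed the filter through the obstruction/vehicle group. This median is therefore a description and not support for a rise. The split of all calls was 2583 higher to 1608 lower, against 5928 to 8552 by the scanner's own log ratio and 1613 to 175 by median centring.

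Kdr had log2 ratios of 1.46, 0.74 and 0.98 on the obstruction/vehicle arrays of slides 1, 2 and 3, and 0.08, -0.02 and -0.02 on the sham/vehicle arrays. The groups did not overlap. The log2 difference was 1.05 ± 0.23 (SE, n = 3 arrays a group), a 2.06-fold higher level (adjusted p = 0.0121). It was positive on each of the 3 slides. Without obstruction/vehicle replicate 1, the highest array, it was 0.84 with an adjusted p of 0.0533. The adjusted p ran from 2.49e-05 to 0.0533 over the alternatives. Kdr had only 1 probe, so none of these used another probe.

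Vwf had log2 ratios of 0.73, 0.24 and 1.12 in obstruction/vehicle and -0.11, -0.09 and -0.10 in sham/vehicle. The groups did not overlap. The log2 difference was 0.80 ± 0.17 (adjusted p = 0.00945), 1.74-fold. The spread and the size depended on the normalization: by the scanner's log ratio the arrays were 1.27, 1.28 and 1.31 in obstruction/vehicle and -0.52, -0.10 and -0.17 in sham/vehicle, and the difference was 1.55. The second Vwf probe showed no such pattern: its means were 0.12 ± 0.13 (SD, n = 3) in obstruction/vehicle and 0.10 ± 0.08 in sham/vehicle, and the difference was 0.024 ± 0.10 (SE, adjusted p = 0.925). That probe was dim, with Cy5 well above background on 8 of 12 arrays against 12 of 12 for the brightest. The call on the brightest probe was also lost in a fit of only the compared arrays (adjusted p = 0.0694) and on slides 2 and 3 alone (adjusted p = 0.0760).

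Angpt2 had log2 ratios of 0.66, 0.32 and 0.83 in obstruction/vehicle and 0.07, 0.21 and -0.0023 in sham/vehicle. The lowest obstructed array was above the highest sham array by a small margin. The log2 difference was 0.51 ± 0.12 (adjusted p = 0.0148). The second probe gave 0.40 ± 0.13 (adjusted p = 0.0689) and the third, which was well above background on 8 of 12 arrays, -0.0047 ± 0.09 (adjusted p = 0.984). The call was lost without sham/vehicle replicate 3 (0.46, adjusted p = 0.0727), without obstruction/vehicle replicate 1 (0.48, adjusted p = 0.0524) and without obstruction/vehicle replicate 3 (0.40, adjusted p = 0.0589). It was also lost with median centring (0.55, adjusted p = 0.261), in a fit of only the compared arrays (adjusted p = 0.101) and on slides 2 and 3 alone (0.47, adjusted p = 0.100). Over its alternatives, the third probe included, the adjusted p ran from 0.000441 to 0.984.

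Cdh5 went the other way. Its log2 ratios were -0.51, -0.33 and -0.53 in obstruction/vehicle and 0.17, -0.14 and -0.04 in sham/vehicle, with no overlap. The log2 difference was -0.45 ± 0.10 (adjusted p = 0.0104), a 1.37-fold lower level, and it was negative on each slide. By the scanner's log ratio it was -0.79. The second Cdh5 probe, well above background on all 12 arrays, did not share it, with a difference of 0.036 ± 0.07 (adjusted p = 0.824). That probe lies at chr19:779103-779162, apart from the brightest one. Median centring kept the sign of the brightest probe's difference at -0.41 but not the call (adjusted p = 0.645), as did Cy5 alone (adjusted p = 0.305) and the fit of only the compared arrays (adjusted p = 0.0740).

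Eng was the nearest of the genes not called. Its log2 ratios were 1.42, 0.35 and 0.76 in obstruction/vehicle and 0.44, -0.25 and -0.23 in sham/vehicle. The groups overlapped, because the slide 1 sham array stood above the slide 2 obstructed array, yet on each slide the obstructed array was higher, by 0.99, 0.61 and 1.00. The log2 difference was 0.86 ± 0.29 (adjusted p = 0.0803). With the replicate number, which is also the slide, as a block it was 0.86 ± 0.10 (adjusted p = 5.27e-05). In that blocked fit 25.3% of all probes were called. Leaving out sham/vehicle replicate 1 or obstruction/vehicle replicate 2 also gave a call, with adjusted p of 0.0435 and 0.0200, as did the scanner's log ratio, median centring and slides 2 and 3 alone (4.58e-06, 0.0162 and 0.00628). Slide 1 was the highest slide for Eng in all 4 groups, and for Kdr too.

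The other 4 genes did not pass the test. Pecam1 had log2 ratios of 0.01, 0.01 and 0.08 in obstruction/vehicle and -0.01, -0.09 and -0.01 in sham/vehicle, and the 95% interval of the difference was -0.12 to 0.26. By the scanner's log ratio Pecam1 was called, with a difference of 0.61 (adjusted p = 0.0189), where 40.1% of all probes were called. Flt1, the other VEGF receptor, had a difference of 0.01 ± 0.11 on its brightest probe and 0.10 ± 0.13 on its second, with intervals that leave room for about -0.22 to 0.24 on the first. Tek, the angiopoietin receptor, had 0.19, 0.04 and 0.67 in obstruction/vehicle and -0.04, 0.02 and -0.05 in sham/vehicle, a difference of 0.32 ± 0.16 (adjusted p = 0.246). Cy5 of the Tek probe was well above background on all 3 obstruction/vehicle arrays and on 0 of 3 sham/vehicle arrays. Only 2 arrays of the other groups were, so the probe passed the filter of 3 arrays through the obstruction/vehicle group, and neither this detection nor its lack of overlap is support for a difference. Tek was called higher by the scanner's log ratio (adjusted p = 0.0269) and by Cy5 alone (adjusted p = 0.0271). Given how the probe passed the filter, these calls are not support for a rise either. The second Tek probe went the other way, with a difference of -0.117 ± 0.15 (adjusted p = 0.710). Angpt1, the Tek agonist, had a difference of -0.13 ± 0.13 (adjusted p = 0.603), with 1 of 3 slides positive. Of all 9 genes, 6 had groups that did not overlap (Pecam1, Cdh5, Kdr, Tek, Vwf and Angpt2). By probe this was 6 of 15, Tek included, against 24.7% of all probes.

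**Figure D1:**
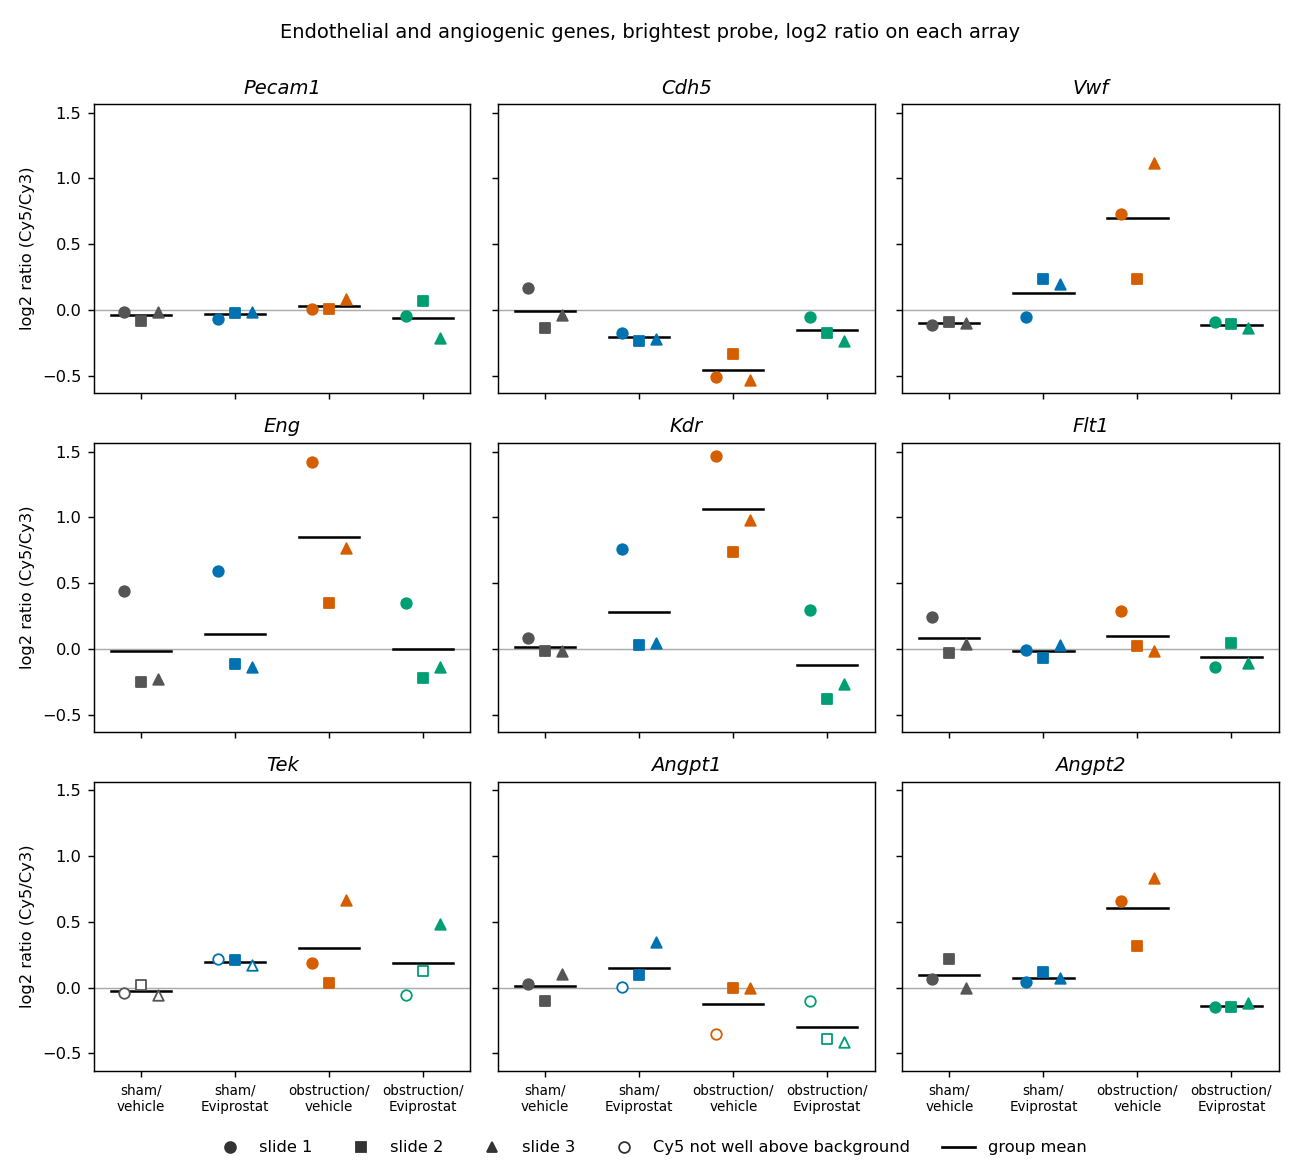
Log2 ratio of Cy5 to Cy3 (y axis) on each of the 12 arrays for the brightest probe of each gene, by group (x axis); the symbol gives the slide, an open symbol a Cy5 signal not well above background, and a bar the group mean. Kdr, Vwf and Angpt2 are highest in obstruction/vehicle and Cdh5 lowest there, and the slide 1 arrays are highest for Kdr and Eng in each group.

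In the obstructed rats, Eviprostat was set against vehicle, and Kdr, Vwf and Angpt2 fell. These were 3 of 9 genes, against 12.2% of all genes read on their brightest probe. Of all probes 9.8% were called, 3.9% higher and 5.89% lower. The median log2 difference was -0.18 over the 9 genes and -1e-04 over all genes. The value of -0.18 is that of Angpt1, with Cy5 well above background on 0 of 3 obstruction/Eviprostat arrays. It is therefore a description and not support for a fall. This comparison shares the obstruction/vehicle arrays with the one before, so a high value on those arrays enters both. The split of all calls was 1409 higher to 2127 lower, against 7821 to 5700 by the scanner's log ratio and 132 to 1197 by median centring.

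Kdr had log2 ratios of 0.29, -0.38 and -0.27 in obstruction/Eviprostat, below all 3 obstruction/vehicle arrays. The log2 difference was -1.18 ± 0.23 (adjusted p = 0.00711), 2.27-fold, and on the slides it was -1.17, -1.12 and -1.25. The adjusted p ran from 3.79e-06 to 0.0415 over 21 alternatives, each of which kept the call. With only 1 Kdr probe, these could not include another probe, as they did for Vwf and Angpt2.

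Vwf was -0.10, -0.11 and -0.14 in obstruction/Eviprostat, below all 3 obstruction/vehicle arrays. The difference from obstruction/vehicle was -0.81 ± 0.17 (adjusted p = 0.0102), and -1.54 by the scanner's log ratio. The second probe gave -9e-04 ± 0.10, and the call on the brightest was lost in a fit of only the compared arrays (adjusted p = 0.0640) and on slides 2 and 3 alone (adjusted p = 0.0696). Over all its alternatives the adjusted p ran from 2.3e-06 to 0.999.

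Angpt2 was -0.15, -0.15 and -0.12 in obstruction/Eviprostat. The difference was -0.74 ± 0.12 (adjusted p = 0.00169), and here the second probe was called too, at -0.55 ± 0.13 (adjusted p = 0.0186). The third probe gave -0.05 ± 0.09 (adjusted p = 0.807). Median centring kept the size on the brightest probe, -0.82, without the call (adjusted p = 0.0799).

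Cdh5 was -0.05, -0.17 and -0.24 in obstruction/Eviprostat, above each obstruction/vehicle array. The difference of 0.30 ± 0.10 missed the threshold (adjusted p = 0.0786), but with the replicate block the adjusted p was 0.0264, without obstruction/vehicle replicate 2 it was 0.0329, and by the scanner's log ratio 0.00114. The second probe gave -0.01 ± 0.07. Eng was 0.35, -0.22 and -0.14, a difference of -0.85 ± 0.29 (adjusted p = 0.0951), and with the block -0.85 ± 0.10 (adjusted p = 6.87e-05). Without obstruction/vehicle replicate 2 it was -1.10 (adjusted p = 0.0235), and it was also called by the scanner's log ratio, median centring, Cy5 alone and slides 2 and 3 alone (adjusted p of 4.99e-06 to 0.0402). With the block 5 of 9 genes were called, against 23.5% of probes.

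Pecam1, Flt1, Tek and Angpt1 differed by -0.10, -0.16, -0.11 and -0.18, each with a 95% interval that includes 0. By the scanner's log ratio Tek was called (-1.76, adjusted p = 0.0185), where 37.5% of all probes were called. Its probe passed the filter through the obstruction/vehicle group, so this call is not support for a fall. The second Tek probe gave -0.18 ± 0.15 (adjusted p = 0.542). Groups did not overlap for 5 of 9 genes, or 6 of their 15 probes, against 24.3% of all probes.

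**Figure D2:**
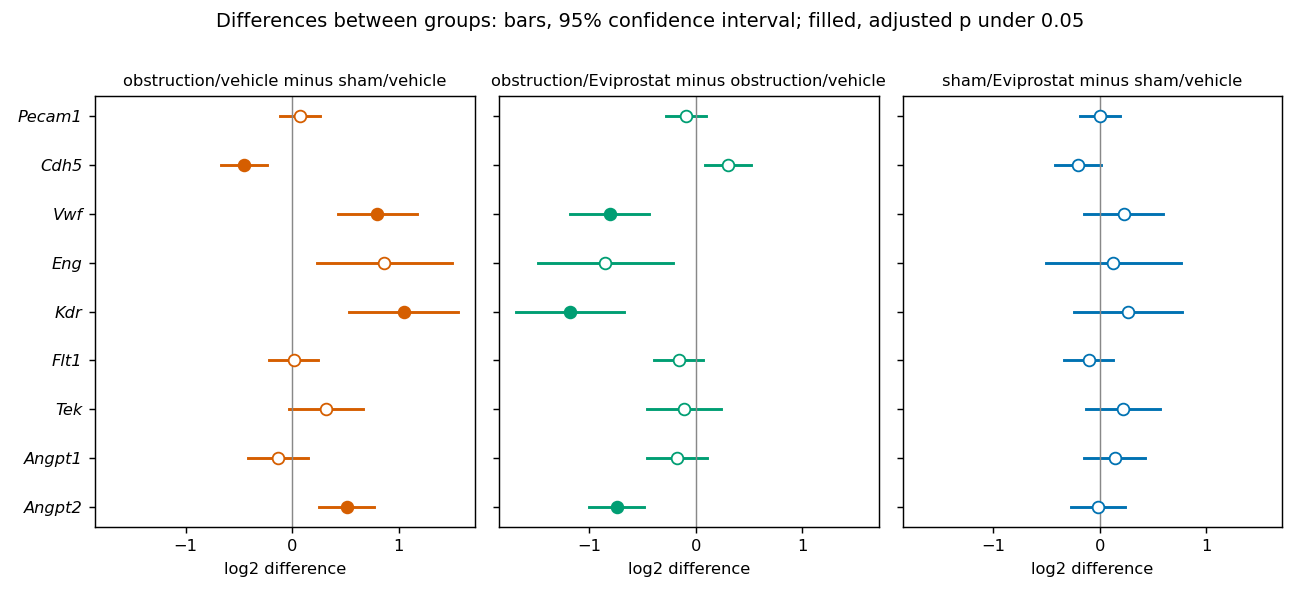
Log2 difference between groups (x axis) for the brightest probe of each gene (y axis), with 95% confidence intervals, in 3 comparisons; filled points had an adjusted p under 0.05. Kdr, Vwf and Angpt2 are called higher in obstruction/vehicle than in sham/vehicle and lower in obstruction/Eviprostat than in obstruction/vehicle, and no gene is called between the sham groups.

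In sham rats, Eviprostat against vehicle gave 0 calls among the 9 genes in the main limma fit, and 0 had an unadjusted p under 0.05. In that fit 1.53% of all probes were called. By the scanner's log ratio 1 gene, Vwf, was called (0.54, adjusted p = 0.0106), with 9.48% of probes. Kdr had log2 ratios of 0.76, 0.03 and 0.05 in sham/Eviprostat, so only the slide 1 array stood away from sham/vehicle, and the difference was 0.26 with a 95% interval of -0.25 to 0.77. Vwf was -0.05, 0.23 and 0.19, a difference of 0.23 with an interval of -0.14 to 0.60. Cdh5 was -0.18, -0.23 and -0.22, all below the sham/vehicle arrays, a difference of -0.20 with an interval of -0.42 to 0.0097. Angpt2 was 0.04, 0.12 and 0.07, with a difference of -0.02. Eng was 0.59, -0.12 and -0.14, a difference of 0.13 with an interval of -0.51 to 0.76. The groups did not overlap for 3 genes (Cdh5, Tek and Vwf), or 3 of 15 probes, against 19% of all probes.

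Obstruction/Eviprostat was also set against both sham groups. Against sham/vehicle 0 of 9 genes were called in the main limma fit and 1 had an unadjusted p under 0.05, with 0.294% of probes called. The Kdr difference was -0.14 (interval -0.64 to 0.37), that of Vwf -0.01 (-0.38 to 0.36) and that of Angpt2 -0.23 (-0.49 to 0.02). The groups did not overlap for 2 genes, Angpt1 and Angpt2. By probe this was 4 of 15, against 17.2% of all probes. Against sham/Eviprostat 0 of 9 were called in the main limma fit and 1 had an unadjusted p under 0.05, with 2.28% of probes called. That gene was Angpt1 in both. Its log2 ratios were -0.10, -0.39 and -0.41 in obstruction/Eviprostat and 0.01, 0.09 and 0.35 in sham/Eviprostat, with no overlap. In this comparison 3 of the 9 genes, or 4 of their 15 probes, did not overlap, against 21.7% of all probes. For Angpt1 the difference was -0.45 ± 0.13 (adjusted p = 0.119), and with the replicate block the adjusted p was 0.0397, with 8.75% of probes called. By the scanner's log ratio 4 genes were called lower than in sham/Eviprostat, with 11.9% of probes called. They were Kdr (-0.48, adjusted p = 0.00778), Vwf (-0.54, 0.00952), Angpt2 (-0.37, 0.0354) and Angpt1 (-1.91, 0.0498). Cy5 of Angpt1 was well above background on 0 of 3 obstruction/Eviprostat arrays.

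The effect of Eviprostat in obstructed rats was compared with that in sham rats by the interaction term. It passed the threshold for 4 of 9 genes, 3 negative and 1 positive, against 10.2% of all genes read on their brightest probe. Over all probes it passed for 8.66%, 4.89% negative and 3.78% positive. It was -1.44 ± 0.33 for Kdr (adjusted p = 0.0186), -1.04 ± 0.24 for Vwf (adjusted p = 0.0204), -0.73 ± 0.17 for Angpt2 (adjusted p = 0.0191) and 0.51 ± 0.14 for Cdh5 (adjusted p = 0.0431). The sign was the same on all 3 slides for each of these. For Eng it was -0.98 ± 0.41 (adjusted p = 0.185), and with the block the adjusted p was 0.000389, with 21.9% of probes called. These calls lay near the threshold. The call for Kdr was lost when replicate 2 or 3 of sham/vehicle was left out (adjusted p = 0.0505 and 0.0508), and likewise for replicate 2 or 3 of obstruction/Eviprostat (0.0569 and 0.0557). The call for Vwf was lost without replicate 2 or 3 of sham/vehicle, sham/Eviprostat or obstruction/Eviprostat (0.0511 to 0.0557). The call for Angpt2 was lost without sham/vehicle replicate 3 (0.0590), sham/Eviprostat replicate 2 (0.0510) or obstruction/Eviprostat replicate 2 (0.0519). The call for Cdh5 was lost without any 1 array other than sham/vehicle replicate 2 and obstruction/vehicle replicate 2 (0.0564 to 0.0994). Other settings also ended calls on this term. Median centring ended those for Angpt2 (adjusted p = 0.301) and Cdh5 (0.895), and Cy5 alone (0.404) and a normexp offset of 16 (0.0653) that for Cdh5. On slides 2 and 3 alone the adjusted p was 0.0748 for Vwf, 0.0899 for Angpt2 and 0.105 for Cdh5. By the scanner's log ratio the term was -2.09 for Vwf and 0.81 for Cdh5, and Eng was called (adjusted p = 4.43e-05), as on slides 2 and 3 alone (0.0226). Pecam1 (-0.75, adjusted p = 0.0415) and Tek (-2.29, adjusted p = 0.0306) were also called by the scanner's log ratio, with 32.4% of all probes. The Tek probe passed the filter through the obstruction/vehicle group, so its call is not support for a difference.

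Probes of the same gene were next compared over the 12 arrays, as a description. Pearson's r was 0.90 between the 2 brighter Angpt2 probes, but 0.31 and 0.42 between these and the third. It was 0.38 for the 2 Vwf probes, 0.47 for the 2 Flt1 probes, -0.36 for the 2 Tek probes and -0.49 for the 2 Cdh5 probes. The 2 Tek probes were dim, well above background on 5 and 3 of 12 arrays. An offset of 50 added to each intensity draws the ratios of dim probes toward 0, so a small difference on a dim probe does not show that the level was unchanged. Which transcripts each probe detects was not tested.

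**Figure D3:**
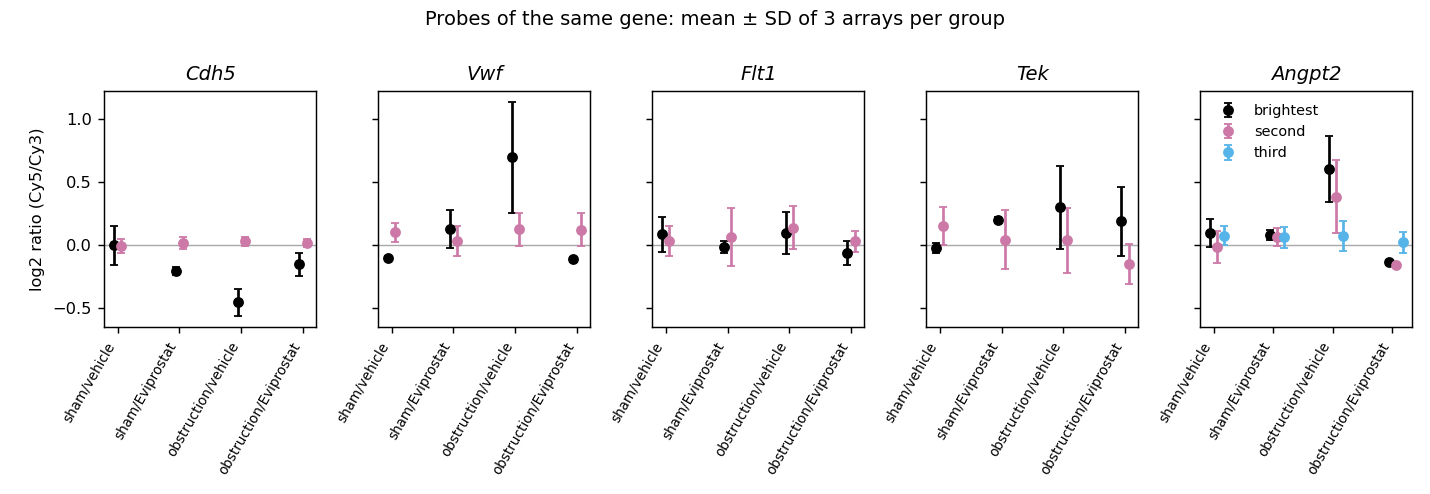
Mean log2 ratio ± SD of the 3 arrays in each group (y axis; groups on the x axis) for each probe of the 5 genes that had more than 1, coloured by brightness rank. The brightest and second Angpt2 probes move together, while the second probes of Cdh5 and Vwf and the third of Angpt2 stay near 0 in all groups.

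The genes did not move as one across the 12 arrays, which share a common Cy3 sample and, by slide, a scan. Kdr was most like Eng (r = 0.93) and Vwf most like Angpt2 (r = 0.93). Cdh5 ran opposite to Vwf (r = -0.83), Angpt2 (-0.76) and Kdr (-0.65). Pecam1 had r of 0.53 with Vwf and -0.26 with Cdh5. Angpt1 had r between -0.21 and 0.23 with each of the other 8 genes.

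Among 17052 genes, those most like each member over the 12 arrays were as follows, with r. They are the highest of many correlations over few arrays, so a high r can come from the search alone. They are given as a description, and no test was made. For Kdr they were Stmn1 (0.97), Entpd2 (0.96) and Plxnd1 (0.96), the last of these a semaphorin receptor of endothelial cells. For Eng they were Csf1 (0.99), the macrophage growth factor, Rhog (0.98) and St6galnac4 (0.98). For Vwf they were Hlx (0.99), Kcne4 (0.99) and P4ha1 (0.99), which hydroxylates collagen. For Angpt2 they were Scnn1g (0.97), Pde4b (0.96) and Lpcat2 (0.96). For Cdh5 they were Hspb7 (0.94), Cdpf1 (0.94) and LOC287010 (0.93). For Tek they were Tnp2 (0.90), Bmx (0.88), a kinase of endothelial cells, and Sult4a1 (0.88). Angpt1 was most like Nup155 (0.94), Vps13d (0.91) and Cachd1 (0.90), Pecam1 most like Kcnk15 (0.85), LOC680027 (0.82) and LOC500081 (0.81), and Flt1 most like LOC498549 (0.88), Or1f26 (0.87) and RGD1565752 (0.87).

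Other genes of the same pathways were read from lists. Of 19 measured genes of the VEGF and angiopoietin pathway, 4 were called higher and 1 lower with obstruction, or 26.3% against 14.6% of all genes, with a median log2 difference of 0.14 (0 over all genes). This share rests on few genes and is not a result about the list. Angptl4, a secreted relative of the angiopoietins that responds to low oxygen, rose by 1.34 ± 0.16, and Hif1a, the oxygen-regulated transcription factor, by 1.32 ± 0.14. Angpt4, a further Tek ligand, rose by 0.71 ± 0.18. Angptl2 rose by 0.51 ± 0.15. Vegfc, the ligand of lymphatic growth, fell by 0.49. Vegfa itself had a difference of 0.24 ± 0.08 (adjusted p = 0.062), and Pgf, Vegfb, Nrp1 and Flt4 had differences between -0.04 and 0.14. In obstructed rats given Eviprostat, 3 of the 19 fell and 1 rose against vehicle, or 21.1% against 12.2% of all genes, with a median of -0.15: Angptl4 (-1.51 ± 0.16), Hif1a (-1.42 ± 0.14) and Angpt4 (-0.73 ± 0.18) fell, and Vegfc rose by 0.45 ± 0.09. That share, too, rests on few genes and is not a result about the list. No gene of this list was called between the sham groups.

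Of 21 genes of endothelial NOTCH, BMP and related receptors, 4 rose with obstruction and none was called lower, with a median of 0.19. That is 19% of the list, near the 14.6% of all genes called, and is not a result about the list. Id3 (1.15 ± 0.14) and Id1 (0.89 ± 0.15), which are targets of BMP signalling, rose, as did Acvrl1 (0.68 ± 0.12), the receptor that works with Eng, and the NOTCH ligand Jag1 (0.90 ± 0.23). Dll4, Notch1 and Notch4 had differences of 0.05, 0.16 and 0.29, none of which passed. With Eviprostat in obstructed rats 5 fell, or 23.8% against 12.2% of all genes, with a median of -0.23 over the list, among them Id3 (-1.48 ± 0.14), Id1 (-1.38 ± 0.15), Apln (-1.29 ± 0.22) and Jag1 (-0.84 ± 0.23). This share rests on 5 genes and is likewise not a result about the list. Id3 and Id1 were also lower in obstruction/Eviprostat than in sham/Eviprostat, with differences of -0.87 and -0.71.

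A wider list held 22 measured endothelial genes, none of them among the 9. With obstruction 11 rose and none was called lower, or 50% against 14.6% of all genes, and the median log2 difference was 0.64. Procr, the endothelial protein C receptor, rose by 1.81 ± 0.30, Podxl by 1.34 ± 0.15, Mmrn2 by 1.29 ± 0.16 and Thbd, thrombomodulin, by 1.13 ± 0.29. Ptprb, Tie1, Cd34 and Sox17 were among the 11 not called, at 0.03, 0.16, 0.09 and -0.12. With Eviprostat in obstructed rats 10 of 22 fell, or 45.5% against 12.2% of all genes, with a median of -0.49, including Procr (-1.50 ± 0.30), Podxl (-1.16 ± 0.15), Mmrn2 (-1.11 ± 0.16) and Esam (-0.99 ± 0.17). Of 4 genes of activated endothelium, Icam1 (1.44 ± 0.13) and Vcam1 (1.25 ± 0.19) rose and Sele and Selp did not pass. Icam1 and Vcam1 fell with Eviprostat in obstructed rats, with differences of -1.36 ± 0.13 and -1.25 ± 0.19. Selp, the selectin kept in the same granules as Vwf, was instead higher in sham/Eviprostat than in sham/vehicle (0.58 ± 0.09, adjusted p = 0.00510). Of 3 lymphatic genes Lyve1 (1.17 ± 0.29) and Pdpn (1.75 ± 0.34) rose with obstruction, and Pdpn fell with Eviprostat.

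Markers of other cell types moved in the same comparisons, and their part in the values above was not tested. With obstruction, 9 of 10 leukocyte genes, 6 of 7 fibroblast genes, 5 of 5 smooth muscle genes, 2 of 7 pericyte genes and 2 of 3 urothelial genes rose, and 3 of 9 prostate epithelial genes fell. Over all genes 14.6% were called in this comparison. The pericyte share, 28.6%, rests on 2 genes and is not a result about that list. The mean log2 ratio over the leukocyte list was 1.68 to 2.24 on the obstruction/vehicle arrays, -0.01 to 0.05 on sham/vehicle, -0.05 to 0.05 on sham/Eviprostat and 0.24 to 0.26 on obstruction/Eviprostat. The fibroblast list ran from 1.64 to 2.28, from -0.03 to 0.09, from 0.42 to 0.73 and from 0.35 to 0.51 in the same order, and the pericyte list from 0.40 to 0.91, from -0.04 to 0.15, from 0.12 to 0.21 and from 0.0037 to 0.02. The endothelial list was 0.37 to 0.86 on obstruction/vehicle, -0.04 to 0.06 on sham/vehicle, 0.04 to 0.06 on sham/Eviprostat and 0.06 to 0.07 on obstruction/Eviprostat. On the loess log2 ratios, obstruction/vehicle replicate 2 was the lowest of its group for the endothelial, pericyte, leukocyte and fibroblast lists. The same held there for Kdr, Eng, Vwf, Angpt2 and Tek. For these genes the order depended on the normalization. With the scanner's log ratio, replicate 2 was still the lowest for Kdr and Angpt2. The lowest array was then replicate 3 for Eng and replicate 1 for Vwf and Tek.

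Platelets also hold Vwf. Of 5 platelet genes 1, Pf4, rose with obstruction (1.61 ± 0.28), while Gp9, Gp5, Ppbp and Gp1bb had differences of -0.07, -0.19, -0.06 and 0.15. The share called, 20%, is near the 14.6% of all genes and is not a result about the list. All 5 platelet genes were well above background on at least 11 of 12 arrays.

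The tissue itself differed between the groups. All 9 prostate epithelial markers were well above background on every array, among them probasin (Pbsn), and their mean log2 ratio was -0.62 to -0.45 on obstruction/vehicle against 0.14 to 0.22 on obstruction/Eviprostat. Seminal vesicle genes were high in 2 groups, with a mean log2 ratio of 4.52 to 5.17 in obstruction/vehicle and 4.28 to 4.43 in sham/Eviprostat, against 0.03 to 0.06 in sham/vehicle and 0.55 to 0.86 in obstruction/Eviprostat. The part of these tissues in the values of the 9 genes was not tested. Skeletal muscle genes ran from -1.53 to -1.33 in obstruction/vehicle and from 1.22 to 1.54 in sham/Eviprostat. In whole tissue, fewer cells of a type and less RNA per cell cannot be told apart.

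**Figure D4:**
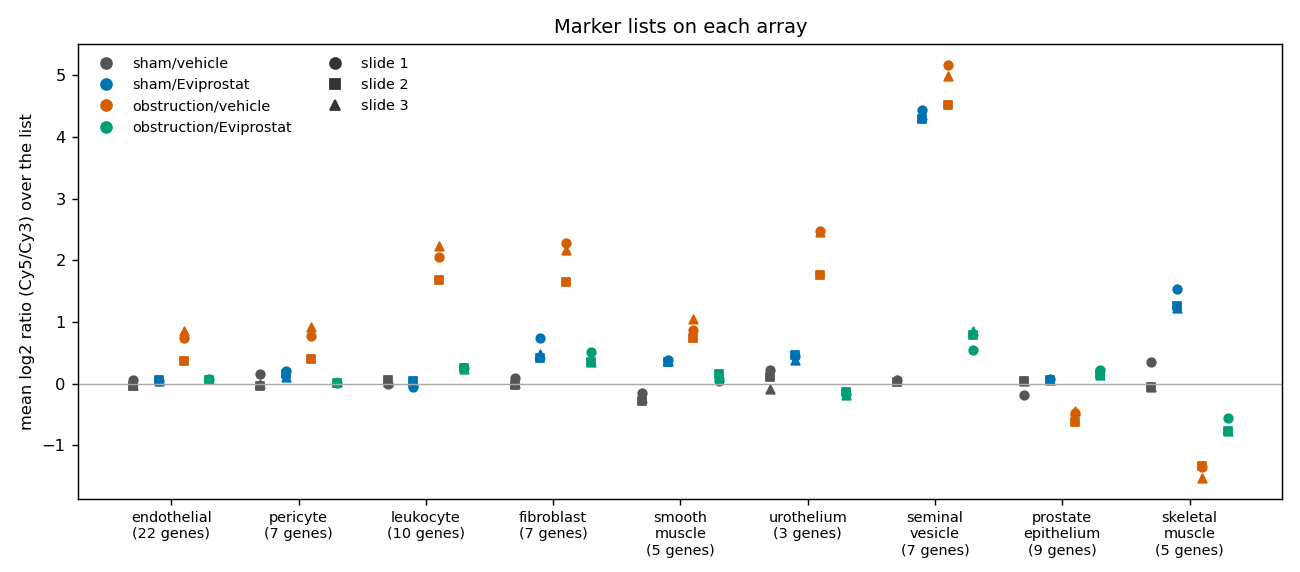
Mean log2 ratio of Cy5 to Cy3 over each marker list (y axis) on each of the 12 arrays, by list (x axis), coloured by group and with the slide as the symbol. The endothelial list is 0.37 to 0.86 on the obstruction/vehicle arrays and near 0 elsewhere, while leukocyte and fibroblast lists reach 2.24 and 2.28, and the seminal vesicle list is high in sham/Eviprostat as well.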

How the data were processed

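The spot intensities and local backgrounds of both channels were used as deposited by the authors. Per the file headers they were written by Agilent Feature Extraction 9.5.1.1, which is also the tool in the submitters' processing notes. The deposited value table is the log10 ratio of red to green of the same files, with a largest difference of 0, which fixes its scale and direction and shows no added centring. Its column medians were 0 on 11 arrays and -0.00454 on obstruction/vehicle replicate 1.

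Background was corrected by normexp (offset 50), and loess was run within each array on the log2 ratios (limma 3.58.1, R 4.3.3, statmod 1.5.0 and the data.table package, version 1.17.8). Control and outlier spots got weight 0 and were dropped; saturated ones stayed. Repeated spots of a probe were averaged. Probes needed a Cy5 signal well above background on 3 or more of the 12 arrays. Names were brought up to date through RefSeq accessions and symbols, with no coordinates taken from them: 10735 probes were named by accession, 5571 had a current symbol, 3729 an older one and 3371 kept the array's. Per the labels, 1500 ng of sham/vehicle RNA and 300 ng from each of the other groups were labelled. In Cy5, 71.0% to 88.4% of an array's spots stood well above background, and the median Cy5 intensity ran from 401 to 677. The number of arrays limits the precision.

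One limma fit of all 12 arrays (lmFit, eBayes, 8 residual degrees of freedom) gave every difference, with Benjamini-Hochberg adjustment over 36098 probes. A group's arrays always had the same place on the slide, so effects of place and group cannot be told apart. Arrays with the same replicate number share a slide and deviated together: all 18 pairs had a correlation of deviations above 0.1, from 0.16 to 0.78. The replicate number was therefore fitted as a block in an alternative. Other alternatives were the scanner software's log ratio, median centring, Cy5 alone, normexp offset 16, no filter, a filter on all 12 arrays, only the arrays compared, slides 2 and 3 only, each array left out, and each gene's other probes. The members and lists were chosen with earlier results of these data known. Genes are named where they are members, are in a list and had one of the 4 largest called differences there, or are among the 3 most correlated with a member. Other list genes, mainly ones not called, were picked for mention after their values were seen. Exon and protein annotation was not used here. Figures were drawn with matplotlib.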

Additional observations from a re-analysis of the deposited data

Results flagged for a closer look

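For 4 of the 9 genes the effect of Eviprostat in obstructed rats differed from that in sham rats by the interaction term of the fit (adjusted p under 0.05). The difference of the 2 effects on the log2 scale was -1.44 for Kdr, -1.04 for Vwf and -0.73 for Angpt2, and 0.51 for Cdh5. Kdr differed by -1.18 with Eviprostat in obstructed rats and by 0.26 in sham rats, Vwf by -0.81 and 0.23, Angpt2 by -0.74 and -0.02, and Cdh5 by 0.30 and -0.20. The second probe of Cdh5 gave an interaction of -0.038, that of Vwf 0.068 and that of Angpt2 -0.62, none of them called. Groups of 3 arrays are too small for a search for single outlying arrays.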

How the results depend on the processing

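Each call on a single gene in a comparison was refitted under 20 to 23 settings, which gave 238 refits over all calls. The refits reuse the same arrays and are not independent. Of the 238, 183 kept the call and its direction, 51 lost the call and 4 changed sign. Of 911 such refits for differences not called, 32 gained a call. The changes of sign all came from another probe: Cdh5 at 0.0358 for obstruction and -0.0378 for the interaction, Vwf at 0.0676 for the interaction, and the third Angpt2 probe at -0.0047 for obstruction. The cause was not tested.

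The number of the 9 genes called was 4 for obstruction, 3 for Eviprostat in obstructed rats, 0 in sham rats, 0 for obstruction/Eviprostat against either sham group and 4 for the interaction. By the scanner's log ratio these were 7, 6, 1, 4 (against sham/Eviprostat) and 7, with 40.1%, 37.5%, 9.48%, 11.9% and 32.4% of all probes called. The counts of 7, 6 and 7 include Tek, whose probe passed the filter through the obstruction/vehicle group. Median centring gave 2 for the interaction, the fit of only the compared arrays 1 for obstruction, and the second probe 1 for obstruction and 1 for the interaction. The replicate block gave 5 for Eviprostat in obstructed rats and 1 for obstruction/Eviprostat against sham/Eviprostat, and slides 2 and 3 alone also 1 for the latter. Apart from the gains of Eng, Cdh5 and Angpt1 given above, the block changed no other call. Leaving out 1 array at a time gave 2 to 5 for obstruction, 3 to 5 for Eviprostat in obstructed rats and 0 to 4 for the interaction.

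Over all probes, 4191 were called for obstruction and 3536 for Eviprostat in obstructed rats. These counts were 14480 and 13521 by the scanner's log ratio, 1788 and 1329 with median centring, 1834 and 1768 with only the compared arrays, and 9125 and 8494 with the block. Signal limits Tek and Angpt1, whose probes were below or near background in some groups. The Pecam1 probe was also dim, with a mean log2 intensity of 7.11 against 7.02 for Angpt1, though well above background on all 12 arrays.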
